A study of Mus musculus with 6 samples.

Results

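Slit2 is the mouse gene for a secreted guidance protein, and Mir218-1 is a microRNA gene that lies inside it, on the same strand. Their array signals were compared between NIT-1 cells given cadmium and NIT-1 cells left without it. Both genes were chosen by the difference in their own signals between these groups, array by array, so their own values are given as a description and carry no test. They are 2 of the 18961 genes that the array table measured under a single gene symbol, and each was read by 1 probe set.

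NIT-1 is a beta cell line grown from an insulinoma of a NOD mouse whose tumours were driven by the SV40 large T antigen under an insulin promoter, so the cells cycle, unlike most beta cells of an islet. All cells were kept in medium with fetal bovine serum, penicillin and streptomycin and were plated for 24 h. They then spent another 24 h with CdSO4 at 0 µmol/L (3 control arrays) or at 4 µmol/L (3 cadmium arrays), an exposure that the study describes as a way to cause oxidative damage. Total RNA of each sample was hybridised to 1 array. The labels call the arrays of a group biological replicates but say nothing of separate passages, so the spread given here may be smaller than that between independent cultures.

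Slit proteins bind Robo receptors on nearby cells. In the nervous system this repels growing axons, and in other tissues it steers migration, vessel growth and cell adhesion. Inside the cell, Robo receptors act through adaptor proteins and through proteins that switch small GTPases on or off, and these remodel the actin skeleton. Slit proteins and Robo receptors are also known in pancreatic islets, where they have been linked to beta cell survival and islet architecture. miR-218 is made from a pair of hairpins, each within an intron of a Slit gene, and it is known for repressing Robo messages and for its high level in motor neurons. A microRNA inside a host gene can be cut from the host's transcript or made from a start of its own.

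The sequences below come from RefSeq, build GRCm38.p6, and are shown 5′ to 3′ to let the mature forms of Mir218-1 be compared with others. In the mature forms the capitals mark the seed, bases 2 to 8, which pairs with target messages.
miR-218-5p: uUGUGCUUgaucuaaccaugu
miR-218-1-3p: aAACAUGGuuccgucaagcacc
miR-218-2-3p: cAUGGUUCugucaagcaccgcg
miR-7002-3p: uUGUGCUUccccuugccag
The first of these is the guide strand named in most work on miR-218. It lies at chr5:48223966-48223986 on the plus strand within Mir218-1, and the same letters occur in the hairpin of Mir218-2 at chr11:35616840-35616860. The passenger strands of both hairpins differ in their seeds (chr5:48224005-48224026 for Mir218-1 and chr11:35616882-35616903 for Mir218-2, both plus strand). The seed UGUGCUU occurred in 3 mature entries of the table, the other being miR-7002-3p at chr2:114150516-114150534 on the minus strand.

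The hairpins are shown with their mature forms in capitals, to let the copies be compared.
Mir218-1 hairpin: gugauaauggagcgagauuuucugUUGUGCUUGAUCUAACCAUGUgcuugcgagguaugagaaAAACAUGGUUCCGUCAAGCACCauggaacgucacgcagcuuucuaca
Mir218-2 hairpin: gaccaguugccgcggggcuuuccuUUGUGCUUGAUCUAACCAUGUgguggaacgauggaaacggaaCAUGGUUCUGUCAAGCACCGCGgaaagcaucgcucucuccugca
The hairpin of Mir218-1 spans chr5:48223942-48224051 and that of Mir218-2 chr11:35616816-35616925, both on the plus strand, and each is 110 bases long. Outside the guide strand their loops and arms differ. Which form of the RNA the Mir218-1 probe set reads (the host's intron, the hairpin or the mature form) is stated by no source used here. Mir218-2 was not measured under a single gene symbol and is not analysed here.

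The promoter of Slit2 is shown because both genes lie downstream of it on the plus strand. The 250 bases before the start listed by RefSeq lie at chr5:47982905-47983154, with a TATA box (TATAAA) and GC boxes (GGGCGG) in capitals.
Slit2 promoter: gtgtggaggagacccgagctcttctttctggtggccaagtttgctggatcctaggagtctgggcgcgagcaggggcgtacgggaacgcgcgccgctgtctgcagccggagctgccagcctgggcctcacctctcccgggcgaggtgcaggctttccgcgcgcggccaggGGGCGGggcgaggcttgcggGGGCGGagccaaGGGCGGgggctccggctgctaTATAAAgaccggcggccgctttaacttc
The TATA box began 28 bases before the start, and 12.4% of the 32851 promoter windows of the same length held this motif on either strand. There were 3 GC boxes, a motif found in 32.7% of windows. The window was 69.6% G and C, against a median of 52.4%, and 90.2% of windows held less. No match was found for the metal response core (TGCACNC or TGCGCNC, in 21.4% of windows), the antioxidant response core (TGACNNNGC, in 10.2%) or a heat shock pair (GAANNTTC, in 6.69%). Both strands were searched, and no motif overlapped another in this window. A match in these letters is a description and not a bound site.

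Values are deposited array signals, treated as log2, on which a difference of 1 is a doubling if the base is 2. The 6 array medians lay between 3.34 and 3.40. A background bound was set at the 95th percentile of the 5222 negative control probes of each array, which lay between 6.12 and 6.25 with a mean of 6.18. A fold is given only against this bound or above it, and a group mean below it is only a limit. In a principal component analysis the leading component (61.2% of the variance) split the arrays by group. The next, with 15.6%, set control replicate 3 (-12.38) and cadmium replicate 1 (-11.61) apart from the others (5.56 to 6.29). Results are therefore also given without that pair of arrays where they moved.

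Slit2 was lower in the cells given cadmium, near the limit of what the array can measure. Its signal in the control arrays was 6.23, 6.30 and 6.21, and in the cadmium arrays it was 5.43, 5.42 and 5.43. All control arrays lay above all cadmium arrays, and the gap between the groups (0.78) was wider than the control range of 0.09 and the cadmium range of 0.01. The control mean was 6.25 ± 0.05 (SD, n = 3), which is 0.06 above the mean bound of the control arrays. The cadmium mean was 5.43 ± 0.01 (SD, n = 3), or 0.74 below the mean bound of the cadmium arrays. The difference was -0.82 on the log2 scale. Because the cadmium mean lay below the bound, only a limit can be given, set by the control mean against the cadmium arrays' own bounds, which is a signal at least 1.06-fold lower with cadmium. In control arrays the signal exceeded 95.2% to 95.3% of negative control probes, and in cadmium arrays 90.5% to 91.1%.

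Mir218-1 gave a bright signal, well inside the measurable range, that was lower in the cells given cadmium. The control arrays read 10.54, 10.66 and 10.10, and the cadmium arrays read 8.94, 8.76 and 8.81. Again no cadmium array reached a control array, and the gap of 1.16 exceeded the range within either group (0.57 and 0.18). The means were 10.43 ± 0.30 and 8.84 ± 0.09 (SD, n = 3 each), which is a difference of -1.60 or a signal 3.02-fold lower. Both means lay far above the bound, by 4.25 in control and 2.67 in cadmium arrays, and every array exceeded at least 99.2% of negative control probes. Among all genes, ordered from the most negative difference, Mir218-1 stood at place 2 and Slit2 at place 54. Both were chosen by this difference, so the places are a description, and that of Slit2 rests on a cadmium signal below the bound. Among the 552 microRNA genes measured, the difference of Mir218-1 was the most negative. The next was -1.45, for Mir872, which lay below the bound in both groups. Over all genes, 2465 of 18961 (13.0%) had every cadmium array below every control array, a background given here because both members do, with nothing read from it. No other gene had the same 6 values as either member.

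Whether the 2 members differed by different amounts cannot be settled here, because the change of Slit2 is only a limit. On the log2 scale of the deposited values the signal of Mir218-1 stood 4.19 ± 0.26 above that of Slit2 in control arrays and 3.41 ± 0.09 in cadmium arrays (SD, n = 3 each), a change of -0.78. These are different probe sets, so the distance says nothing of relative abundance, and its change rests on a Slit2 signal below the bound. Among the control arrays, both genes were highest in replicate 2 and lowest in replicate 3. The control spread of Mir218-1 was set mainly by control replicate 3, which lay 0.34 below its group mean. Leaving out each array in turn gave -0.84 to -0.79 for Slit2 and -1.76 to -1.48 for Mir218-1. Leaving out both arrays that stood apart gave -0.84 and -1.82.

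**Figure D1:**
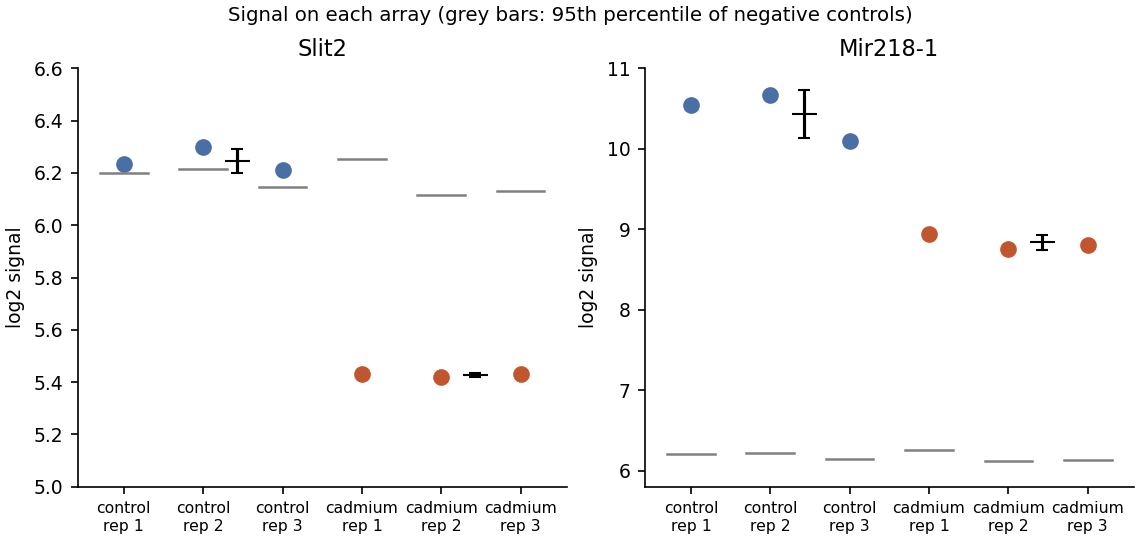
Array signal (log2 scale) of Slit2 and Mir218-1 on each of the 3 control and 3 cadmium arrays, with black marks for the group mean ± SD and grey bars for each array's background bound. The control arrays of Slit2 sit just above the bound (6.21 to 6.30) and its cadmium arrays below it, while all 6 arrays of Mir218-1 lie well above.

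The labelled cell type was checked against markers, because a marker of another cell type can move with a member. Of 14 beta cell markers 8 were measured under a single symbol, and none had a group mean above the bound. Their summed level was 7.45 to 7.54 in control and 7.59 to 7.63 in cadmium arrays, with insulin gene Ins2 at 5.27 and 5.29. This sum is over genes whose group means all lay below the bound, so these markers could not check the label. Across 7 lists of cell types, 27 of 53 entries were measured, and those above the bound in any group were Col3a1, a fibrillar collagen of mesenchyme, and Tubb3, a tubulin of neurons. The mesenchyme list (2 of 8 measured, Col1a2 and Col3a1) had a summed level of 9.04 to 9.28 in control and 8.06 to 8.37 in cadmium arrays, and 1 of its 2 genes passed the test. That gene, Col3a1, fell, the direction in which Slit2 differed, from 9.07 ± 0.13 to 8.06 ± 0.17 (SD, n = 3 each; limma adjusted p = 0.0018). The neuronal list (4 of 7 measured, 2 called higher) had a summed level of 6.82 to 7.07 in control and 7.43 to 7.61 in cadmium arrays. The exocrine list (5 of 8 measured, 1 called higher, none above the bound) had 6.32 to 6.39 and 6.50 to 6.53, and 1 beta cell marker was called higher. The part of these lists in the members' difference was not tested. In such bulk samples, fewer cells of a type and less RNA per cell cannot be told apart.

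All tests below come from limma, fitted to all 18961 genes with Benjamini-Hochberg adjustment and a threshold of 0.05. At that threshold 2310 genes (12.2%) passed: 1225 (6.46%) rose and 1085 (5.72%) fell in the cells given cadmium. The median difference over all genes was 0.04. The split depends on scaling: the higher share of the calls was 53.0% as deposited, 35.6% once every array was centred on its own median and 39.9% when the arrays were quantile normalized. A fit of only the genes at or above the median level (4.15) still called 2305 genes. The share called is therefore larger among brighter genes than the 12.2% of all genes. List shares below are set against all genes and not against genes of like signal level. The lists that follow leave out both members and were chosen with earlier results of these data known.

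The receptors of Slit2 could be read only in part. Robo1 and Robo2, its main receptors, and the ligands Slit1 and Slit3 were not measured under a single symbol and are not analysed here. None of the 2 measured receptors passed the test, against 12.2% of all genes. Robo3, a receptor that modulates Slit responses in commissural axons, had a mean of 4.10 ± 0.07 without and 4.23 ± 0.04 with cadmium (difference 0.12, limma adjusted p = 0.21). Its arrays did not overlap between the groups, which was so for 35.9% of all genes in either direction. Robo4, the endothelial Robo, was at 4.51 ± 0.04 and 4.54 ± 0.01 (difference 0.03, limma adjusted p = 0.72), and this difference was below 0 under centring (-0.02) and quantile normalization (-0.03). Both lay below the background bound in both groups, so their levels are not resolved.

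Of 34 genes for Robo partners and effectors, 21 were measured, and 5 of these (23.8%) passed the test, with 3 higher and 2 lower; 8 of the 21 had both group means above the bound. The list's median difference was -0.01, against 0.04 for all genes. The share of all genes that passed was 12.2%, but brighter genes are called more often. The list was not compared with genes of like signal level or tested as a set, so no excess is read from its share. Srgap2, a GTPase-activating protein that binds Robo and restrains Rac, fell from 6.48 ± 0.05 to 6.02 ± 0.06, or at least 1.24-fold (limma adjusted p = 0.0036). Flrt3, a membrane protein that pairs with Robo1 in axon guidance, fell from 4.49 ± 0.18 to 3.95 ± 0.05, both below the bound (limma adjusted p = 0.012). These are the members of the list that were lower.

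The 3 genes that rose act on actin or along it. Cap1, a protein that recycles actin monomers, rose from 7.14 ± 0.01 to 7.53 ± 0.06, or 1.31-fold (limma adjusted p = 0.0045). Rhoa, the GTPase that drives actomyosin contraction, rose from 6.44 ± 0.08 to 6.78 ± 0.10, or 1.27-fold (limma adjusted p = 0.025). Myo9b, an unconventional myosin, rose from 6.41 ± 0.02 to 6.62 ± 0.06, or 1.16-fold (limma adjusted p = 0.039). Rac1 and Cdc42, the other small GTPases downstream of Robo, showed differences of -0.05 and 0.14 that did not pass (limma adjusted p = 0.58 and 0.32). Leaving out 1 array ended the call for Rhoa (without control replicate 1 or 2, or cadmium replicate 2 or 3, adjusted p = 0.089 to 0.094) and for Flrt3 (without cadmium replicate 2, 0.052). The call for Myo9b was also lost without any array except cadmium replicate 1 (0.082 to 0.13) and under centring (0.088). Srgap2 and Cap1 kept their calls without each array in turn and under both scalings. The split was 2 higher and 4 lower under centring and 3 of each under quantile normalization, and 11 passed (7 higher) without the arrays that stood apart.

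Genes that process and load microRNAs were looked at because Mir218-1 needs them. Of 16, 6 were measured: Ran, Prkra, Ago1, Ago3, Ago4 and Tnrc6a. Drosha, Dgcr8, Dicer1, Xpo5 and Ago2 were not measured under a single symbol, so the cutting of microRNAs could not be read here. Only 1 of these (16.7%) passed the test, against 12.2% of all genes. Ran, the GTPase that powers export of microRNA hairpins from the nucleus, rose from 7.33 ± 0.09 to 7.72 ± 0.14, or 1.31-fold (limma adjusted p = 0.029). Its call was lost under quantile normalization (0.061) and without any array except cadmium replicate 1 (0.060 to 0.10). Ago1, an Argonaute that carries mature microRNAs, differed by -0.21 (limma adjusted p = 0.081), and Tnrc6a, a scaffold of silencing, by -0.15 (limma adjusted p = 0.090). The list's median was -0.15, against 0.04 for all genes, and centring gave 1 higher and 2 lower calls.

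Of 20 genes reported as miR-218 targets, 12 were measured, and 10 of these were below the background bound in both groups. 2 passed the test, 1 in each direction, against 12.2% of all genes. Pik3c2a, a lipid kinase of endocytosis, fell from 6.22 ± 0.13 to 5.71 ± 0.12, or at least 1.04-fold (limma adjusted p = 0.011). Cav2, a caveolar coat protein, rose from 2.13 ± 0.02 to 2.38 ± 0.09 (limma adjusted p = 0.034), but far below the bound. The call for Cav2 was lost without each array in turn (0.055 to 0.099) and under centring (0.064) and quantile normalization (0.052), and that for Pik3c2a without cadmium replicate 2 or 3 (0.051 and 0.052). Centring and quantile normalization called 2 lower and 0 higher. Pxn, an adaptor of focal adhesions and the only target with both means above the bound, went from 6.36 to 6.49 and did not pass (limma adjusted p = 0.20). The list's median difference was 0.041, against 0.044 for all genes.

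**Figure D2:**
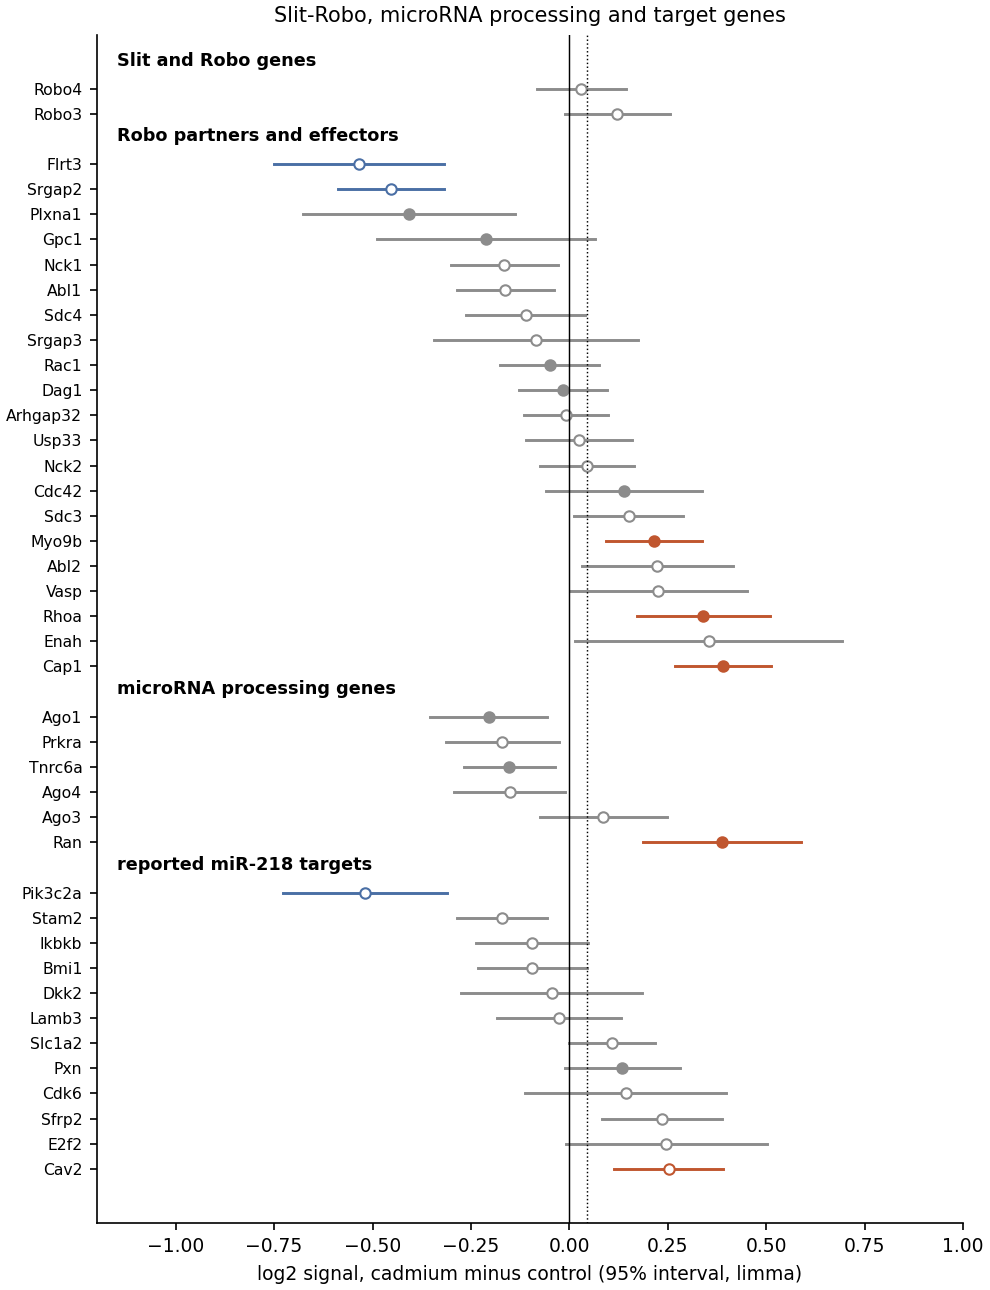
Cadmium minus control (log2 scale) with the 95% interval from limma as a bar, for each measured gene of the Robo receptor, effector, microRNA processing and target lists, with filled circles where both group means were above the background bound. Genes that passed the limma test are red where higher and blue where lower, and the dotted line marks the median of all genes (0.04); Srgap2, Flrt3 and Pik3c2a are the lowest of the calls, and Cap1 and Ran the highest.

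The nearest genes on the chromosome were read to see whether the decrease was shared by that region. Of the 5 measured protein-coding genes on each side, 2 of 10 passed and both were lower (20.0%, against 5.72% of all genes). These genes are ordered among measured genes only, and their distances from Slit2 are not given. Adgra3, an adhesion receptor of the G protein coupled class, is the third measured gene after Slit2. It read 8.23, 8.25 and 7.80 in control and 7.03, 6.66 and 6.63 in cadmium arrays. Its arrays did not overlap, and it fell 2.50-fold (limma adjusted p = 0.0026). Lcorl, a DNA-binding protein, is the nearest measured gene on the other side of Slit2. It fell from 5.59 ± 0.04 to 5.22 ± 0.08 (limma adjusted p = 0.0093), and both means lay under the bound.

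The other neighbours differed less. Of the 10 neighbours, 7 had no group mean above the bound, among them Ncapg, Fam184b, Pacrgl and Kcnip4, so the sizes of their differences are not resolved. Ncapg, a condensin subunit, differed by -0.30 (limma adjusted p = 0.056), Fam184b by 0.07 (0.40), Pacrgl by -0.16 (0.10) and Kcnip4, a subunit of potassium channels, by -0.16 (0.16). The genes further out, Med28, Lap3, Ppargc1a and Dhx15, lay between -0.09 and 0.13. Centring and quantile normalization each called 4 lower, adding Ncapg (0.030 and 0.033) and Pacrgl (0.048 and 0.039), and Ncapg was called without control replicate 3 (0.0088). As deposited, centred or quantile normalized, 0 neighbours were called higher. The median difference of the neighbours was -0.12, against 0.04 for all genes, and most of these signals lay below the bound.

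**Figure D3:**
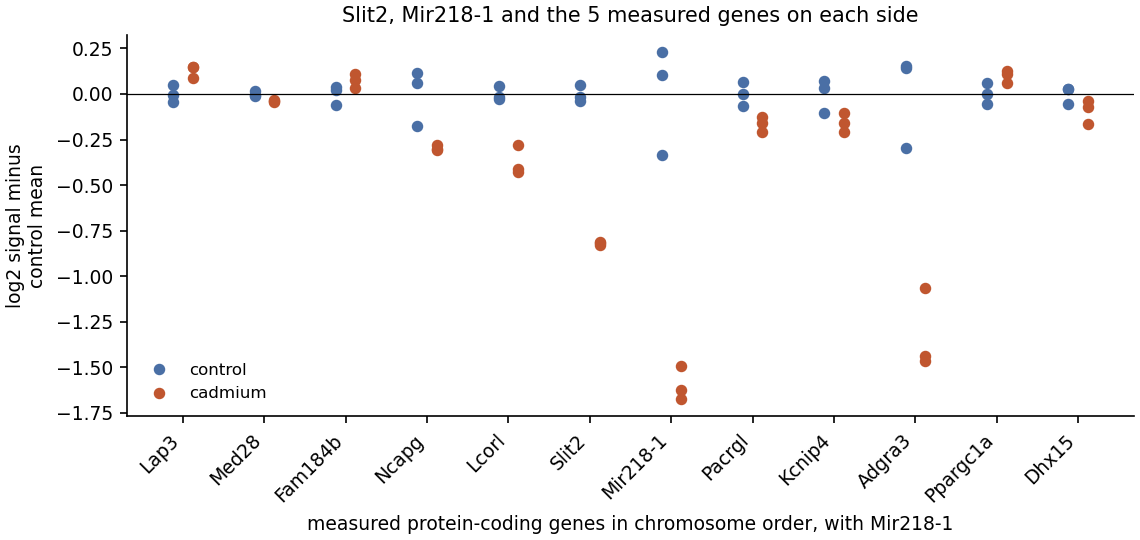
Signal of each array minus the gene's control mean (log2 scale), control arrays in blue and cadmium arrays in red, for Slit2, Mir218-1 and the 5 measured protein-coding genes on each side in chromosome order. The cadmium arrays of Mir218-1 (mean -1.60) and Adgra3 (mean -1.32) lie lowest, and Kcnip4 and Pacrgl, between Adgra3 and Slit2, have cadmium means of -0.16. Kcnip4 and Pacrgl lay below the background bound in both groups.

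To see how other microRNAs and their host genes fared, all measured microRNA genes lying inside a measured protein-coding gene on the same strand were paired with it. There were 199 such pairs, of which 198 did not involve Slit2, in 181 host genes. Among those 198 microRNA genes, 17 were higher and 14 lower (15.7% called), and among the 181 hosts 16 were higher and 27 lower (23.8%). Of all genes 12.2% were called, 6.46% higher and 5.72% lower. Neither share was compared with genes of like signal level, so no excess is read from them. Centring gave 12 higher and 22 lower microRNAs, and 9 higher and 32 lower hosts. Quantile normalization gave 14 and 21 microRNAs, and 12 and 29 hosts. In 6 pairs both genes were lower and in 4 both were higher, while in 1 the directions were opposite. The signs of the differences were the same in 99 of the 198 pairs, and Pearson's r over the pairs was 0.27 (Spearman's coefficient 0.16). This is a description across genes, which share the arrays, and only 12 pairs had both genes above the bound. Another 121 overlaps had no strand in the tables and were not used.

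The pairs in which both fell were Mir32 in Tmem245, Mir103-2 in Pank2, Mir6352 in Epha4, Mir7013 in Pi4kb, Mir350 in Cep170 and Mir7006 in Zfp512b. All 6 microRNA genes lay below the bound in both groups, so the sizes of these differences are not resolved and are not ranked against those of the hosts. The microRNAs differed by -0.90 to -0.43 and the hosts by -1.28 to -0.31. The number of pairs with both lower was 9 under centring, 8 under quantile normalization and 2 to 6 with each array left out. It was 10 without the arrays that stood apart. A microRNA difference below that of Slit2 occurred in 6 pairs, and a host difference below it in 1 (Epha4, an ephrin receptor). Several of those microRNAs, such as Mir872 and Mir32, lay below the bound in both groups. The change of Slit2 is itself only a limit, so these counts rank nothing.

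Among the 198 other pairs, the 5 microRNA genes with the largest differences, in either direction, had hosts that were not called. Mir32, next in size at -0.90, had a host that was called lower, as given above. Mir872 in Ift74 fell from 4.54 ± 0.11 to 3.09 ± 0.52 (limma adjusted p = 0.0093), while Ift74, a subunit of the transport machinery of cilia, differed by -0.09. Mir186 in Zranb2 fell from 7.47 ± 0.31 to 6.14 ± 0.56 (limma adjusted p = 0.025), and this call was lost without control replicate 1 or 2 or cadmium replicate 2 or 3 (0.077 to 0.092). Zranb2, a splicing factor, was at 7.03 without and 7.07 with cadmium, a difference of 0.03 whose sign turned under centring. Mir128-1 in R3hdm1 fell from 6.45 ± 0.07 to 5.26 ± 0.31 (limma adjusted p = 0.0031), while R3hdm1 differed by -0.14. Mir362 in Clcn5, the gene of a chloride and proton exchanger, fell by 0.94 (limma adjusted p = 0.0058), and Mir335 in Mest, an imprinted gene, rose by 0.93 (limma adjusted p = 0.0029); Clcn5 and Mest differed by -0.29 and 0.22 without passing. Clcn5 was called without control replicate 3 (0.0080). Mir872, Mir362 and Mir335 lay below the bound in both groups, so the sizes of their differences are not resolved. Mir186 and Mir128-1 had cadmium means below the bound, so their decreases are only limits, at least 2.19-fold and at least 1.22-fold.

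Mir7002, which makes the other mature form with the UGUGCUU seed, rose from 5.46 to 5.99 ± 0.17 (limma adjusted p = 0.0093), with both means under the bound. Its host Aqr, a splicing helicase, fell by 0.39 (limma adjusted p = 0.0083), and this is the pair with opposite calls.

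**Figure D4:**
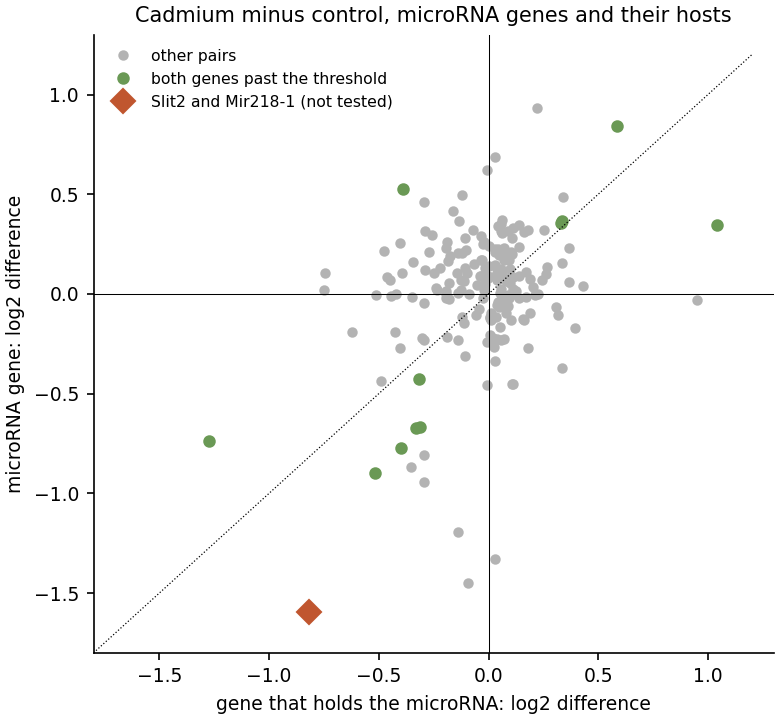
Cadmium minus control (log2 scale) of each microRNA gene against that of the gene that holds it, for all 199 pairs, with green points where both genes passed the test and a red diamond for Mir218-1 in Slit2, which was not tested. The dotted line marks equal differences. Mir218-1 lies at -1.60 and Slit2 at -0.82, below the line, but the change of Slit2 is only a limit, so nothing is read from the distance.

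Finally the genes whose profile over the 6 arrays came closest to each member were listed, by the root mean square distance after centring each gene on its own control mean. Predicted genes, small RNA families and olfactory or vomeronasal receptors were left out. Those nearest to Slit2 were Ptger3, a prostaglandin E receptor (distance 0.044), Trpm7, a cation channel with a kinase domain (0.052), Neo1, a receptor of netrin and repulsive guidance molecules (0.054), Slc2a1, a glucose transporter (0.055), and Scai (0.057). Ptger3 fell from 7.43 ± 0.09 to 6.63 ± 0.02 and Slc2a1 from 8.63 ± 0.10 to 7.86 ± 0.01, both above the bound in both groups. Those nearest to Mir218-1 were Plpp3, a lipid phosphatase (0.18), Pdgfc, a growth factor (0.20), the neighbour Adgra3 (0.21), Epha4 (0.27) and Fat1, a large cadherin (0.33). Fat1 stood at place 6 with no gene left out. Plpp3 fell from 7.81 ± 0.10 to 6.36 ± 0.13, or 2.73-fold. Trpm7, Neo1, Pdgfc, Epha4 and Fat1 had cadmium means below the bound, and Scai lay below it in both groups, so the sizes of their drops are not resolved. The distance between the members themselves was 0.57, which made Slit2 the 43rd nearest gene to Mir218-1 and Mir218-1 the 6190th nearest to Slit2. A gene near in this measure shares the size of its difference, which chose the members, and no more is read from it.

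**Figure D5:**
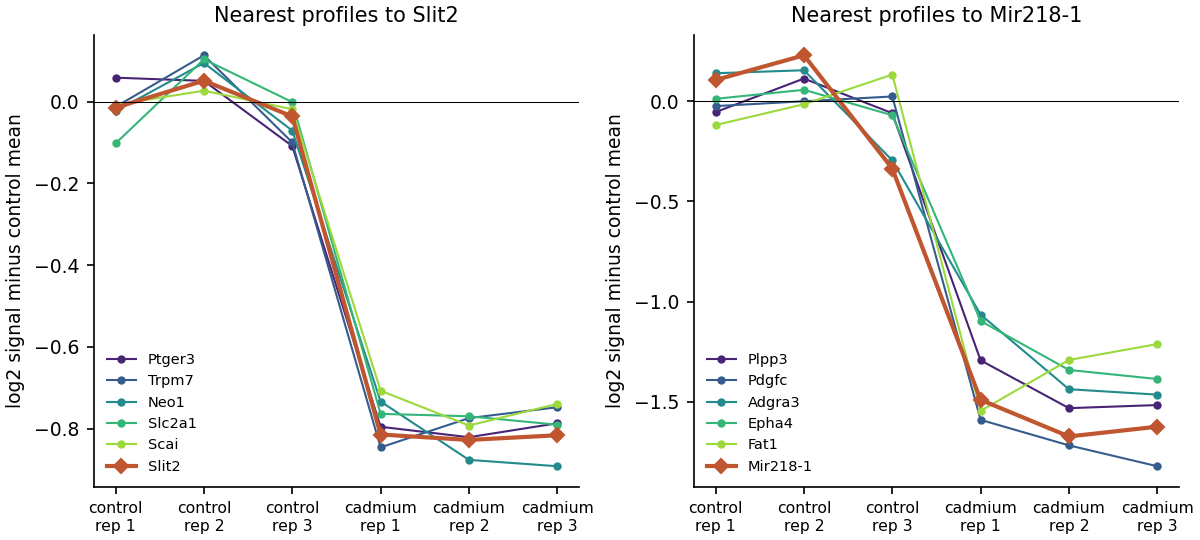
Profiles over the 6 arrays (log2 scale, each gene minus its own control mean) of each member and the 5 named genes nearest to it, with lines only to join the arrays, which have no order within a group. The genes near Slit2 drop by about 0.75 to 0.83 in the cadmium arrays, and those near Mir218-1 by 1.28 to 1.71. Scai, Trpm7, Neo1, Pdgfc, Epha4 and Fat1 had at least their cadmium mean below the background bound, so the sizes of their drops are not resolved.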

How the data were processed

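The deposited series matrix gave 46478 rows on 6 arrays, of which 39746 were transcript clusters and 6732 were control probes. The deposited values are treated as log2; no source used here states their base, background correction, normalization or software. Platform annotation put 1 gene on 19187 clusters, several on 958 and none on 19601. Symbols were updated through RefSeq (GRCm38.p6), by identifier for 13462 genes, and the brightest probe set was kept for each of 18961 genes (159 had more than 1). Every value column matched a sample. Tests used lmFit and eBayes of limma 3.58.1 (R 4.3.3) on all genes, with Benjamini-Hochberg adjustment, tested on simulated data; figures used matplotlib 3.10.9. The members and lists were chosen with earlier results of these data known. Genes named in the text are all measured Slit, Robo and Mir218 genes, list genes past the threshold (up to 5 with the lowest adjusted p, or the 2 lowest where none passed), the 3 nearest neighbours on each side and others past it, up to 5 microRNA pairs by size, and the 5 nearest profiles without predicted genes, small RNA families and olfactory or vomeronasal receptors; examples that did not pass, the pairs in which both genes moved and Mir7002 were added after their values were seen. Alternatives changed scaling, probe choice, filter, variance model, threshold and replicates. With 3 arrays in each group, their number limits the precision.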

Additional observations from a re-analysis of the deposited data

How the results depend on the processing

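The difference of Slit2 was -0.87 with each array centred on its median. That of Mir218-1 was -1.84 after quantile normalization. Leaving out control replicate 3 and cadmium replicate 1 together, an alternative chosen after seeing the data, gave -1.82 for Mir218-1. With each array left out, Slit2 ranged from -0.84 to -0.79 and Mir218-1 from -1.76 to -1.48. Genes changed (2310) ranged from 1141 (without control replicate 2) to 2349, with 1187, 1150 and 1179 without control replicate 1, cadmium replicate 2 and cadmium replicate 3, and were 868 at a threshold of 0.01. By list, the ranges were 0 to 0 for Slit and Robo genes, 2 to 6 for effectors, 0 to 2 for processing genes, 0 to 2 for targets, 2 to 3 for neighbours, 17 to 31 for intronic microRNA genes and 20 to 38 for their hosts. At 0.01 the calls were 2 effectors, 0 processing genes, 0 targets, 13 microRNA genes and 18 hosts. Centring called 3 processing genes and 4 neighbours, quantile normalization called 4 neighbours, and a variance trend with robust fitting called 4 targets. Without control replicate 3 and cadmium replicate 1, 2892 genes, 11 effectors, 2 processing genes, 33 microRNA genes and 46 hosts passed. The cause of these shifts was not tested. Robo4 turned to -0.018 and -0.025 under centring and quantile normalization, and Zranb2 to -0.017 and -0.027, and to -0.01 without both arrays. With each array left out Zranb2 ranged from -0.0026 (without control replicate 3) to 0.055.

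No pairing by replicate number was seen in the values. Deviations from the group means correlated at -0.11, 0.06 and -0.11 between same-numbered arrays, and 0 of 6 arrays correlated best with their own number. This cannot exclude a shared day or passage, because the arrays that stood apart carry different numbers. The labels do not say whether same-numbered arrays belong together. With the replicate block, 1388 genes, 0 processing genes, 1 target and 24 hosts passed.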

Other observations

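The other microRNA genes named here were chosen after their values were seen. Beside Mir218-1, 551 microRNA genes were measured, and 56 (10.2%) were higher and 25 (4.54%) lower with cadmium by limma, against 6.46% and 5.72% of all genes. Of these, 60 had both group means above the bound, and among them 3 were lower (Mir7649, Mir3470a and Mir3470b) and 6 higher. Mir7649 fell from 7.39 to 6.52 (limma adjusted p = 0.0016).

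The host gene Clcn5 holds microRNA genes whose calls went in different directions. All those named here lay below the bound in both groups, so the sizes of their differences are not resolved. Mir362 fell, as described, and Mir501 fell from 5.38 to 4.57 (limma adjusted p = 0.011), while Mir500 rose from 4.42 to 4.88 (limma adjusted p = 0.024). The call for Mir501 was lost without cadmium replicate 2 or 3 (0.051 in both), and that for Mir500 without control replicate 1 or 2 or cadmium replicate 2 or 3 (0.087 to 0.091). Mir128-1 and Mir128-2, copies of 1 microRNA on different chromosomes, also differed in direction, with Mir128-2 higher by 0.21 (limma adjusted p = 0.042). That call was lost with each array left out in turn and under centring (0.086) and quantile normalization (0.10). Mir128-2 lay below the bound in both groups, so the size of its difference is not resolved.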
